A study of Homo sapiens with 10 samples.

Results

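The axon guidance ligands and receptors were taken from the deposited expression table by gene symbol. They cover the semaphorins of classes 3 to 7 with their plexin and neuropilin receptors, the ephrins with the EphA and EphB receptors, the Slits with the Robo receptors, and netrins 1, 4 and 5 with the UNC5 receptors. This rule found 67 of the 34567 genes in the table, 34 of them ligands and 33 receptors. RNA had been sequenced from 10 libraries of human glioblastoma (GBM) cell lines, in 4 groups. SNB19 cells received Scramble siRNA (3 control libraries) or siRNA against MEOX2, a homeobox transcription factor (3 knockdown libraries), by transient lipid transfection. U87 cells carried a lentiviral empty vector (2 libraries) or a lentivirus expressing MEOX2 (2 overexpression libraries). The study's methods state that the U87 cells were selected with puromycin as a stable line. Each cell line received only 1 of the manipulations, so cell line and kind of manipulation cannot be told apart. The labels do not say whether replicates came from separate cultures, and p-values therefore measure the spread between these libraries, which may be technical.

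These genes encode cues that steer growing axons and migrating cells. Secreted or membrane-bound ligands bind receptors on the cell surface, and the receptors pass the signal through small GTPases to the actin cytoskeleton, so that a process turns away, turns towards or stops. Class 3 semaphorins are secreted and signal through a complex of a neuropilin and a plexin. Most other semaphorins are anchored in the membrane and bind plexins directly. Ephrins and Eph receptors both sit in the membrane and signal between touching cells. The same families act in blood vessels and have been studied in the invasion of glioma cells.

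Library totals lay between 12533775 and 16560324 counted reads. U87 empty vector replicate 1 stood apart from the other 9 libraries. Ribosomal protein genes took 12.9% of its counts against 3.99% to 6.64% elsewhere, it had counts for 19590 genes against 20933 to 26059, and its log2 CPM values correlated with those of empty vector replicate 2 at r = 0.942 across genes, where replicate pairs of the other groups reached at least 0.995. For results that use the U87 empty vector, the levels of both libraries are shown, and counts of calls and fitted values of members are given with and without this library. It also enters the SNB19 comparison, though only through the spread that all 4 groups share in 1 fit. Levels are given as FPKM, fragments per kilobase of gene scaled to sequencing depth. The fits also correct depth by a TMM factor, which was 0.695 for U87 empty vector replicate 1 and 0.950 to 1.13 for the other libraries. FPKM and fitted fold changes therefore differ in scaling where that library is used. Among glioma markers VIM (81.4 to 687 FPKM) and CD44 (13.0 to 74.6 FPKM) were found in every library, whereas GFAP stayed at or below 0.397 FPKM and S100B at or below 0.222 FPKM.

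The targeted gene followed the labels. MEOX2 had 249, 224 and 275 counts (6.01 to 7.09 FPKM) in the SNB19 control libraries and 54, 40 and 49 counts (1.11 to 1.39 FPKM) in the knockdown libraries, a log2 fold change of -2.42 ± 0.15 (SE; adjusted p = 0.000119, edgeR's quasi-likelihood test with Benjamini-Hochberg adjustment over all genes tested, as for all adjusted p-values here). In U87 the empty vector libraries had 0 and 0 counts and the overexpression libraries 4999 and 5308 (160 and 145 FPKM). Against a floor of 3 counts over the empty vector group, MEOX2 was at least 3821-fold higher with overexpression, which covers counting error only. Overexpressed MEOX2 in U87 stood far above the level found in SNB19 control cells.

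PLXND1, PLXNB2 and SEMA6C were the members whose level passed the test in both cell lines, and the sequence before their RefSeq start sites (GRCh38.p14, minus strand for all 3) is shown to place them. Each stretch is what remains of the 250 bases before the start once bases in GENCODE v29 exons are removed, and capitals mark TAAT or its reverse complement ATTA, the core that many homeodomain proteins bind. The PLXND1 stretch is chr3:129606819-129606926, upstream of the annotated gene (chr3:129555175-129606818). The PLXNB2 stretch is chr22:50301670-50301919, inside the annotated gene (chr22:50274979-50307627) but outside its exons. The SEMA6C stretch is chr1:151146665-151146881, upstream of the annotated gene (chr1:151131685-151146664).
PLXND1: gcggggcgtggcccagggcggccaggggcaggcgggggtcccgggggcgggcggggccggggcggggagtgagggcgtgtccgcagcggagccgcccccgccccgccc
PLXNB2: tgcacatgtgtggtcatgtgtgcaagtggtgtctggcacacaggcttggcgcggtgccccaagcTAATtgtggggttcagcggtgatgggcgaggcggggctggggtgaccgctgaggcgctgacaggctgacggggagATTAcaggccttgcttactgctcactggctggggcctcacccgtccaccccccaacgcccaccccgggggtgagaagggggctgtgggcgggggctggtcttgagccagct
SEMA6C: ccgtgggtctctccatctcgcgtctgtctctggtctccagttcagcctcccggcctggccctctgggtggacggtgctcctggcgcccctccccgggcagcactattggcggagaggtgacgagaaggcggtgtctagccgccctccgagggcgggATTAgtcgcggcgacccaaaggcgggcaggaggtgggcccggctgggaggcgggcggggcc

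The longer palindrome TAATTA, read on both strands, occurred in 2 of the 90 RefSeq promoter windows of 58 members (2.22%), at EPHA5 and ROBO3. It occurred in 1699 of 35116 windows of all genes (4.84%). Each window holds 300 bases. The 58 members with a window are not the same genes as the 58 tested below. NRP1, SEMA3A and SEMA6B, for example, were tested and had no window, while EFNA2 and EPHA1 had a window and were not tested. The 4-base core, which every TAATTA also contains, occurred in 34 of the 90 member windows (37.8%) and in 50.2% of all windows. These are letter matches and no measure of binding.

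Of the 67 members, 58 passed the filter on low counts and were tested. A gene is said to have passed the test, or to be called, at an adjusted p under 0.05, and to have risen or fallen only then. The other 9 (EFNA2, EPHA1, EPHA6, EPHA8, EPHA10, EPHB6, ROBO2, SEMA6D and UNC5D) had at most 65 counts each over all 10 libraries. A member could pass through the group in which it was high, so counts over the tested members describe those members alone. In SNB19 control cells 38 members reached a mean of 1 FPKM, against 39 in knockdown cells, 27 in U87 empty vector cells and 26 in U87 overexpression cells.

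MEOX2 knockdown in SNB19 was accompanied by lower transcript levels of 12 members. They were both neuropilins, 3 of 9 plexins, 3 of 19 semaphorins, 1 of 3 ephrin-B ligands, 2 of 4 EphB receptors and 1 of 3 Slits tested. NRP1, EFNB1, PLXND1, EPHB3, SLIT3, SEMA5B, EPHB2, SEMA3F, NRP2, SEMA6C, PLXNA3 and PLXNB2 fell, by 1.58-fold to 3.18-fold, and no member rose by edgeR's quasi-likelihood test at an adjusted p under 0.05. SEMA3G was the 1 member higher at an unadjusted p under 0.05, and DESeq2 called it higher too. These were 12 of the 58 members tested (20.7%), beside 15.1% of all 17312 genes tested, of which 6.74% were higher and 8.4% lower. Higher genes made up 44.5% of all calls on the count scale and 59.8% with limma on log2(FPKM + 1). The median log2 fold change was -0.18 over the members and -0.0013 over all genes. In bulk RNA, fewer cells of a type and less RNA per cell cannot be told apart.

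**Figure D1:**
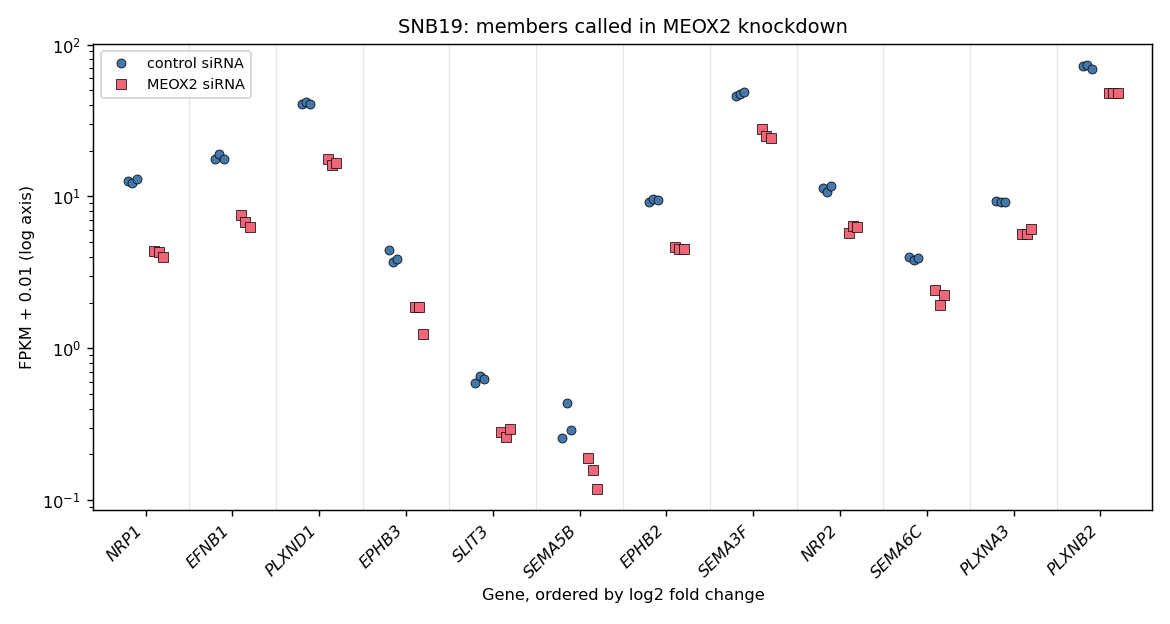
Levels of the 12 members called in SNB19, as FPKM + 0.01 on a log axis for each library, with control siRNA as circles and MEOX2 siRNA as squares, ordered from the most negative log2 fold change. All 3 knockdown libraries lay below all 3 control libraries for every gene shown, but the genes were chosen by the test on these libraries, so this is no separate evidence. Of the 58 members tested, 28 did not overlap between the groups in FPKM, 8 higher and 20 lower after knockdown. The share over all genes is not given.

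The largest fall was that of NRP1, the neuropilin that serves class 3 semaphorins and VEGF as a co-receptor. Its FPKM was 12.5, 12.2 and 13.1 in control cells and 4.35, 4.31 and 3.99 in knockdown cells. The groups did not overlap, and the log2 fold change was -1.67 ± 0.31 (SE; adjusted p = 0.00833). NRP2, the neuropilin preferred by SEMA3F, went from 11.4, 10.7 and 11.7 FPKM to 5.70, 6.39 and 6.31 FPKM, a log2 fold change of -0.97 ± 0.22 (adjusted p = 0.0189). Both neuropilins were thus lower in every knockdown library than in any control library.

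Of 9 plexins, the signalling subunits of semaphorin receptors, 3 fell and 6 did not pass the test. PLXND1, a receptor of SEMA3E known from vessel patterning, had 40.4, 41.7 and 40.8 FPKM in control cells and 17.7, 16.1 and 16.7 FPKM in knockdown cells. Its log2 fold change was -1.37 ± 0.16 (adjusted p = 0.00117). PLXNB2, a receptor of class 4 semaphorins and the plexin with the highest level in SNB19, had 72.3, 73.1 and 69.0 FPKM against 48.2, 47.9 and 48.1 FPKM. This was the smallest of the 12 changes, with a log2 fold change of -0.66 ± 0.12 (adjusted p = 0.00761). PLXNA3, a partner of neuropilins, had 9.16 to 9.28 FPKM against 5.61 to 6.07 FPKM and a log2 fold change of -0.76 ± 0.17 (adjusted p = 0.0199). PLXNA1 stayed close to its control level, at 19.1 to 19.3 FPKM against 19.0 to 20.8 FPKM.

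Among the semaphorins themselves, 3 of the 19 tested fell. SEMA3F, a secreted ligand that repels neuropilin-2 bearing cells, was the most abundant class 3 semaphorin of SNB19. It measured 45.9, 47.0 and 48.3 FPKM in control cells and 27.7, 24.8 and 24.1 FPKM in knockdown cells, a log2 fold change of -0.97 ± 0.15 (adjusted p = 0.00325). The ligand and its neuropilin NRP2 were therefore lower by nearly the same factor of 1.96. SEMA6C, a transmembrane semaphorin, had 4.0, 3.81 and 3.89 FPKM against 2.42, 1.91 and 2.24 FPKM, a log2 fold change of -0.92 ± 0.14 (adjusted p = 0.0037). SEMA5B was scarce, at 0.248 to 0.428 FPKM against 0.108 to 0.179 FPKM, and its adjusted p of 0.0443 was the highest of the 12. SEMA7A, which is held by a lipid anchor, had 43.2 to 46.5 FPKM in control and 40.9 to 44.7 FPKM in knockdown cells, and these ranges overlapped. SEMA4B had 35.1 to 37.4 FPKM against 43.2 to 51.2 FPKM (log2 fold change 0.31 ± 0.17, adjusted p = 0.272).

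In the ephrin system 1 of 3 ephrin-B ligands and 2 of 4 EphB receptors tested fell. EFNB1, a transmembrane ephrin that binds EphB receptors, had 17.5, 18.9 and 17.6 FPKM in control cells and 7.53, 6.76 and 6.23 FPKM in knockdown cells. Its log2 fold change was -1.48 ± 0.13 (adjusted p = 0.000384). Its receptor EPHB2 had 9.15, 9.66 and 9.41 FPKM against 4.65, 4.52 and 4.51 FPKM (log2 fold change -1.13 ± 0.10, adjusted p = 0.000384). EPHB3 had 4.45, 3.70 and 3.85 FPKM against 1.87, 1.86 and 1.24 FPKM (log2 fold change -1.36 ± 0.27, adjusted p = 0.0116). A ligand of the B class and a pair of its receptors were thus all lower after knockdown, with no overlap between groups. None of the 4 tested ephrin-A ligands and none of the 5 tested EphA receptors passed edgeR's test, and 0 of them had an unadjusted p under 0.05 or a call by DESeq2. EPHA2, the Eph receptor with the highest level in SNB19, had 73.7, 78.5 and 74.8 FPKM in control cells and 101, 117 and 110 FPKM in knockdown cells, with a log2 fold change of 0.44 ± 0.24 (adjusted p = 0.275). Its groups did not overlap. EFNA3, an ephrin-A ligand, had 3.29, 3.63 and 3.48 FPKM against 5.34, 4.67 and 6.06 FPKM, also without overlap, and a log2 fold change of 0.54 ± 0.28 (adjusted p = 0.237). Both genes were called higher without U87 empty vector replicate 1 and in the SNB19 libraries fitted alone, so the absence of calls on the A side holds for the fit of all libraries.

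SLIT3, a secreted ligand of Robo receptors, was the member of the Slit and netrin systems that fell. It had 0.576, 0.644 and 0.619 FPKM in control cells and 0.272, 0.249 and 0.284 FPKM in knockdown cells, a log2 fold change of -1.28 ± 0.27 (adjusted p = 0.0146). SLIT2, the most abundant Slit of SNB19, had 2.14 to 2.87 FPKM against 1.84 to 2.48 FPKM. No Robo, netrin or UNC5 gene passed edgeR's test in this comparison, and NTN5, a scarce netrin, was the 1 gene of these with an unadjusted p under 0.05 and a call by DESeq2. With the SNB19 libraries fitted alone, ROBO3, UNC5C, NTN5 and SLIT2 were called as well, so the absence of these calls holds for the fit of all libraries. ROBO3 had 2.60 to 3.22 FPKM in control cells and 3.90 to 4.70 FPKM in knockdown cells.

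The calls in SNB19 depended on a U87 library through the shared spread. Without U87 empty vector replicate 1 the same fit called 29 of 58 members, 6 higher and 23 lower, and these included all 12. In that fit 47.2% of 18318 genes were called, 22.5% higher and 24.7% lower. EPHA2 (log2 fold change 0.44, adjusted p = 1.05e-07) and EFNA3 (0.54, adjusted p = 0.00337) were then among the members called higher. The SNB19 libraries fitted alone also called 29 of 51 members (56.9%), 7 of them higher, beside 56% of 15525 genes (27.4% higher, 28.5% lower). In both settings the share of members called was close to that of all genes. With all U87 libraries in the fit, leaving out SNB19 control replicate 1, knockdown replicate 2 or knockdown replicate 3 left 7 members called, and leaving out any other SNB19 library left 8. These were 12.1% and 13.8% of the members, beside 6.23% to 8.23% of all genes. NRP1, EFNB1, PLXND1, EPHB2, SEMA3F and SEMA6C kept their call under all 15 alternatives that used the same call rule, and all 12 kept their direction. SEMA3F and SEMA6C did not pass the stricter rule that also requires an absolute log2 fold change above 1.

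Levels of some endothelial marker genes moved with the knockdown as well. The summed FPKM of the 6 markers was 5.20 to 5.96 in control cells and 0.911 to 1.32 in knockdown cells. PECAM1 alone took most of these sums, at 4.11 to 4.59 FPKM against 0.583 to 0.853 FPKM. Of the 4 tested, 2 fell, PECAM1 (log2 fold change -2.63) and CDH5 (-4.76). CLDN5 and EMCN were at or below 0.0406 FPKM in all SNB19 libraries. The 6 microglial markers summed to 4.69 to 5.49 FPKM in control cells and 1.77 to 2.21 FPKM in knockdown cells, with CSF1R and CD14 lower. CSF1R alone took most of these sums, at 3.48 to 4.06 FPKM against 0.973 to 1.43 FPKM. ITGAM, also tested, had 0.393 to 0.600 FPKM against 0.524 to 0.575 FPKM and did not pass (log2 fold change 0.11). In SNB19, PTPRC was at or below 0.0278 FPKM, AIF1 at or below 0.0946 FPKM and CX3CR1 at or below 0.0330 FPKM. Of the 7 glioma markers tested, 5 fell, namely GFAP, NES, CD44, SOX2 and SOX9. Neuron markers summed to 5.72 to 6.40 FPKM in control and 5.63 to 6.36 FPKM in knockdown cells, with 1 of 5 tested lower, and no oligodendrocyte or fibroblast marker passed edgeR's test, where 1 fibroblast or pericyte marker and no oligodendrocyte marker had an unadjusted p under 0.05 and a call by DESeq2. The part of these markers in the changes of NRP1, PLXND1 and the other members was not tested.

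MEOX2 overexpression in U87 was accompanied by higher SEMA3A, NTN4, EPHA7, SLIT2, ROBO4 and SEMA6C and by lower PLXND1, SEMA3B, EFNA3, SEMA6B, EFNA4, PLXNB2, SEMA4B, SEMA7A, EPHB4 and EFNA5. These 16 of 58 members (27.6%) stood beside 25.3% of all genes tested, of which 10.9% were higher and 14.4% lower. The share of members called was close to that of all genes. Higher genes made up 43% of all calls on the count scale and 61.2% with limma on log2(FPKM + 1). The median log2 fold change was 0.09 over the members and -0.02 over all genes.

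Without empty vector replicate 1, 24 members were called, 7 higher and 17 lower, beside 38.9% of 18318 genes (20.4% higher, 18.5% lower). Of the 16 members, 11 remained. EFNA3, EFNA4, EFNA5, SLIT2 and ROBO4 were lost. In this setting a single library stands for the empty vector and is assumed to vary like the other groups. With the 4 U87 libraries fitted alone, edgeR called no member and no gene, although 2503 of 14180 genes and 9 of 46 members had an unadjusted p under 0.05, and DESeq2 called 991 genes and 6 members. Leaving out empty vector replicate 2 left 35 of 59 members called (59.3%), beside 59.5% of 18374 genes (30.4% higher, 29.1% lower), and these were 24 higher and 11 lower, where the fit of all libraries had more lower than higher. Leaving out either overexpression library left 5 of 59 (8.47%), beside 8% and 8.47% of all genes. These shares were close to those of all genes. PLXND1, SEMA3B, SEMA6B and PLXNB2 kept their call in 13 of 14 alternatives that used the same call rule, losing it with the U87 libraries fitted alone. The other called members kept theirs less often, from 12 of 14 for NTN4 to 4 of 14 for EFNA5.

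Members that had not passed the test could change sign with 1 empty vector library. Without replicate 1, NRP2 went from 0.11 (adjusted p = 0.781) to -0.26 (adjusted p = 0.0135), SEMA3C from 0.05 (adjusted p = 0.943) to -0.40 (adjusted p = 0.00315) and ROBO3 from -0.14 (adjusted p = 0.799) to 0.72 (adjusted p = 0.000282). Without replicate 2, EPHA2, SEMA4C, ROBO1 and PLXNB3 turned from negative to positive log2 fold changes and were called higher. No direction can be given for these 7 members in U87.

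**Figure D2:**
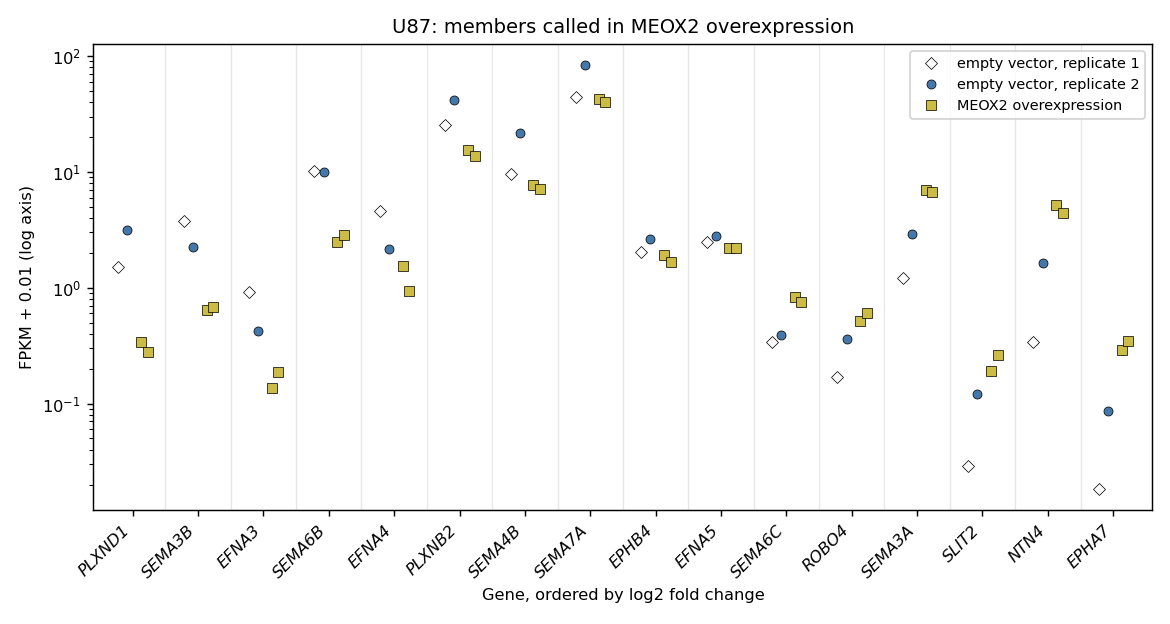
Levels of the 16 members called in U87, as FPKM + 0.01 on a log axis for each library, ordered by log2 fold change. Open diamonds are empty vector replicate 1, circles are empty vector replicate 2 and squares are the 2 overexpression libraries. The empty vector libraries lie far apart for NTN4 (0.327 and 1.62 FPKM) and, on the FPKM scale shown, close together for SEMA6B (10.2 and 9.90 FPKM).

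Among the semaphorin receptors, PLXND1 showed the largest fall. It had 1.49 and 3.16 FPKM in empty vector cells and 0.328 and 0.267 FPKM in overexpression cells. The log2 fold change was -3.14 ± 0.23 (adjusted p = 8.36e-05) and, without empty vector replicate 1, -3.38 (adjusted p = 6.09e-18). PLXNB2 had 25.2 and 41.8 FPKM against 15.4 and 13.8 FPKM, with a log2 fold change of -1.39 ± 0.15 (adjusted p = 0.000415), and -1.48 without replicate 1 (adjusted p = 7.92e-16). Both overexpression libraries were below both empty vector libraries for these plexins, which were also lower after knockdown in SNB19. NRP1, by contrast, had 11.7 and 45.4 FPKM in empty vector cells and 43.5 and 40.3 FPKM in overexpression cells, so the groups overlapped and the change did not pass the test (adjusted p = 0.394, and 0.468 without replicate 1).

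Secreted and membrane-bound semaphorins went in both directions. SEMA3A, a repulsive ligand of neuropilin-1 and class A plexins, rose from 1.21 and 2.92 FPKM to 6.92 and 6.71 FPKM, a log2 fold change of 1.56 ± 0.34 (adjusted p = 0.012). SEMA3B, another secreted class 3 semaphorin, fell from 3.78 and 2.22 FPKM to 0.636 and 0.675 FPKM, a log2 fold change of -2.49 ± 0.36 (adjusted p = 0.00181). Without replicate 1 these became 1.26 (adjusted p = 2.73e-08) and -1.72 (adjusted p = 4.54e-08). The transmembrane SEMA6B fell from 10.2 and 9.90 FPKM to 2.50 and 2.86 FPKM (log2 fold change -2.16 ± 0.20, adjusted p = 0.000208). The empty vector libraries were close to each other for this gene in FPKM only. Their TMM factors of 0.695 and 0.952 set them further apart in the fit, and without replicate 1 the log2 fold change was -1.84. SEMA4B, a class 4 transmembrane semaphorin, had 9.53 and 21.5 FPKM against 7.74 and 7.04 FPKM (log2 fold change -1.23 ± 0.22, adjusted p = 0.00458). SEMA7A, the member with the highest level in U87 empty vector cells, had 44.2 and 83.4 FPKM against 42.6 and 39.8 FPKM (log2 fold change -0.81 ± 0.17, adjusted p = 0.00846). SEMA6C was low and rose, from 0.330 and 0.380 FPKM to 0.824 and 0.741 FPKM (log2 fold change 0.91 ± 0.21, adjusted p = 0.0137). Without replicate 1 the log2 fold change was -1.51 for SEMA4B (adjusted p = 1.39e-14), -0.98 for SEMA7A (adjusted p = 1.11e-11) and 1.07 for SEMA6C (adjusted p = 0.00407).

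In the netrin and Slit systems the called members were higher with MEOX2. NTN4, a netrin of basement membranes, had 0.327 and 1.62 FPKM in empty vector cells and 5.13 and 4.43 FPKM in overexpression cells. Its log2 fold change was 2.18 ± 0.44 (adjusted p = 0.00847), and 1.59 without replicate 1 (adjusted p = 1.52e-07). UNC5B, a repulsive netrin receptor and the member of its family with the highest level in U87, had 11.1 and 37.1 FPKM against 35.0 and 32.2 FPKM, and did not pass the test (adjusted p = 0.474, and 0.43 without replicate 1). SLIT2 was near the limit of detection, with 3 and 15 counts in empty vector cells against 22 and 36 in overexpression cells. Its log2 fold change was 1.61 ± 0.49 (adjusted p = 0.0399), and without replicate 1 it was 1.03 (adjusted p = 0.085). ROBO4, a Robo receptor of endothelium, had 0.158 and 0.354 FPKM against 0.510 and 0.593 FPKM (log2 fold change 0.93 ± 0.26, adjusted p = 0.0318). Without replicate 1 it had a log2 fold change of 0.68 (adjusted p = 0.0807).

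In the ephrin system EPHA7, an EphA receptor, rose from 1 and 8 counts to 26 and 37 counts (log2 fold change 2.72 ± 0.72, adjusted p = 0.0325). Without replicate 1 its log2 fold change was 2.04. It kept its call in 7 of 13 alternatives with the same call rule, and lost it when either overexpression library was left out. Of the 4 ephrin-A ligands tested, EFNA3, EFNA4 and EFNA5 fell with all libraries in the fit and 0 did without replicate 1, while EFNA1 did not pass the test in either (log2 fold change -0.47, adjusted p = 0.653). EFNA3 had 0.908 and 0.410 FPKM against 0.125 and 0.179 FPKM (log2 fold change -2.37 ± 0.57, adjusted p = 0.0169), and EFNA4 had 4.61 and 2.14 FPKM against 1.52 and 0.920 FPKM (log2 fold change -1.80 ± 0.47, adjusted p = 0.0243). Without replicate 1 these became -1.35 (adjusted p = 0.115) and -0.80 (adjusted p = 0.0791), so that this 1 library moved both by about 1 on the log2 scale. In the annotation EFNA3 shares 44.7% and EFNA4 15% of its exonic bases with other genes, as do SEMA4G with 27.4%, EFNB2 with 26.2%, PLXNB3 with 20.4% and ROBO4 with 16.9%. The counts of these genes may be affected. For SEMA4G, EFNB2 and ROBO4 the other genes lie on the opposite strand. EFNA5 had 2.50 and 2.81 FPKM against 2.18 and 2.19 FPKM (log2 fold change -0.51 ± 0.15, adjusted p = 0.0374), and -0.32 without replicate 1 (adjusted p = 0.113). EPHB4, an EphB receptor that binds EFNB2, had 2.02 and 2.62 FPKM against 1.91 and 1.65 FPKM (log2 fold change -0.61 ± 0.14, adjusted p = 0.0152), and -0.53 without replicate 1 (adjusted p = 0.00438). No ephrin-B ligand passed edgeR's test with all libraries (0 by DESeq2, 1 at an unadjusted p under 0.05), and EFNB2 did so without replicate 1 (log2 fold change -0.60). EPHA2 had no stable direction. Its log2 fold change was -0.31 with all libraries, -0.74 without replicate 1 and 0.42 without replicate 2.

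The lists of marker genes of other cell types differed in level in U87. The endothelial markers summed to 0.821 to 1.12 FPKM in empty vector and 0.509 to 0.648 FPKM in overexpression cells, with PECAM1 and VWF lower. The microglial markers summed to 2.58 to 3.46 FPKM and 0.551 to 0.895 FPKM, with CSF1R lower and ITGAM higher, and PTPRC had at most 0.00745 FPKM in U87. Among glioma markers NES and VIM fell and OLIG2 rose, and VIM moved from a log2 fold change of -2.33 to -0.99 without empty vector replicate 1. The neuron list summed to 3.05 to 6.63 FPKM in empty vector and 3.59 to 3.73 FPKM in overexpression cells. For the fibroblast or pericyte list these sums were 4.57 to 7.83 and 2.81 to 3.08 FPKM. For the oligodendrocyte list they were 0.0565 to 0.152 and 0.600 to 0.940 FPKM. SNAP25 of the neuron list and PDGFRB of the fibroblast or pericyte list were lower, and MBP of the oligodendrocyte list was higher. The part of these genes in the members' changes was not tested.

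PLXND1, PLXNB2 and SEMA6C were called in both cell lines. PLXND1 and PLXNB2 were lower with MEOX2 knockdown in SNB19 and lower with MEOX2 overexpression in U87. SEMA6C was the member that moved in opposite directions under opposite manipulations, with a log2 fold change of -0.92 after knockdown and 0.91 with overexpression. Its call in U87 was kept in 9 of 14 alternatives with the same call rule. It was lost with the replicate block, without either overexpression library and in both fits of the U87 groups alone. A difference between the MEOX2 effects was tested directly, as overexpression minus empty vector in U87 less control minus knockdown in SNB19. It passed the test for 13 of 58 members, 1 higher in U87 and 12 lower, beside 23.8% of all genes (9.94% higher, 13.8% lower). PLXND1 had the largest such difference at -4.52 ± 0.28 on the log2 scale (adjusted p = 3.41e-05), followed by SEMA3B at -2.79 ± 0.44 (adjusted p = 0.00239). Without empty vector replicate 1 the difference passed for 24 members, among them all 13, beside 43.1% of 18318 genes (21.3% higher, 21.8% lower). Without that library it was -4.75 for PLXND1 and -2.01 for SEMA3B. It passed for 32 of 59 members without empty vector replicate 2 (54.2%), 16 higher and 16 lower, beside 56.8% of 18374 genes (28.5% higher, 28.3% lower). It passed for 7 and 6 members without overexpression replicate 1 and 2 (11.9% and 10.2%), beside 11.6% and 12.1% of all genes. Each of these shares was close to that of all genes.

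**Figure D3:**
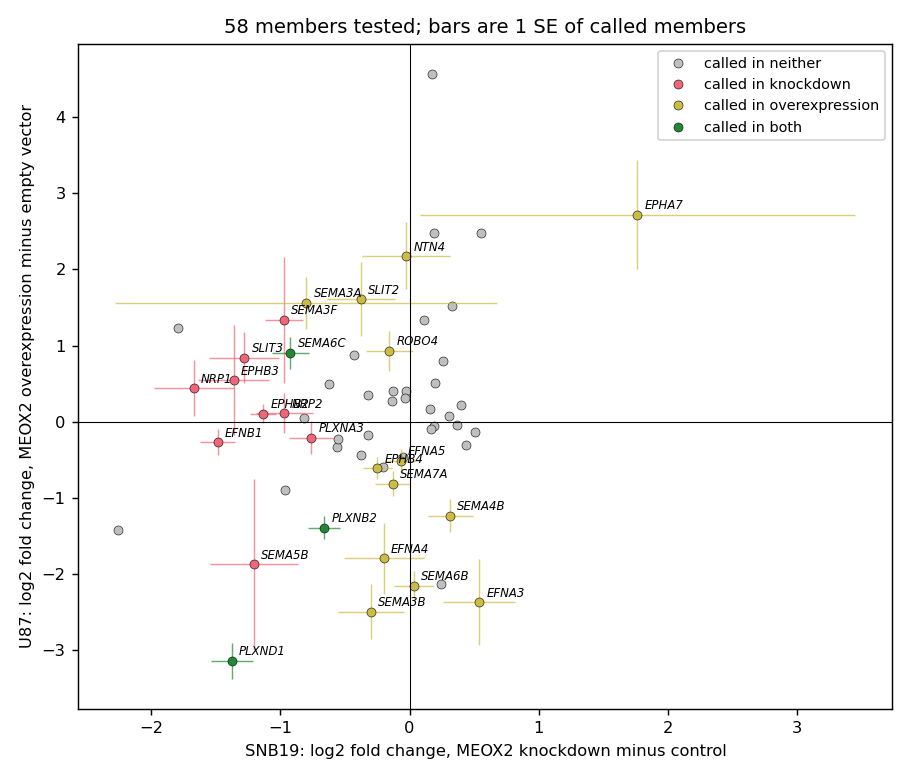
Log2 fold change in SNB19 (MEOX2 knockdown minus control, x axis) against that in U87 (MEOX2 overexpression minus empty vector, y axis) for the 58 members tested, coloured by the comparison in which they were called. Bars are 1 SE, drawn for called members. PLXND1 and PLXNB2 lie at lower left and SEMA6C at upper left.

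The cell lines differed in these genes before any change of MEOX2. Comparing SNB19 control with U87 empty vector cells, 48 of 58 members (82.8%) passed the test, 33 higher in SNB19 and 15 higher in U87, beside 56.4% of all genes (27.9% higher in SNB19, 28.6% lower). The median log2 difference was 1.17 over the members and 0.03 over all genes. Higher genes made up 49.4% of all calls on the count scale and 67.9% with limma on log2(FPKM + 1). Without empty vector replicate 1, 48 members were again called and 45 were shared, with 31 higher and 17 lower in SNB19, beside 63.5% of 18318 genes (32.5% higher, 31% lower). ROBO3 (log2 difference from -0.90 to -0.09), SLIT3 and SEMA4A lost their call, and 17 of the 48 members called with all libraries moved by over 1.5-fold. These groups also serve as controls in the comparisons above, and they differ in line, delivery and selection, which cannot be told apart.

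**Figure D4:**
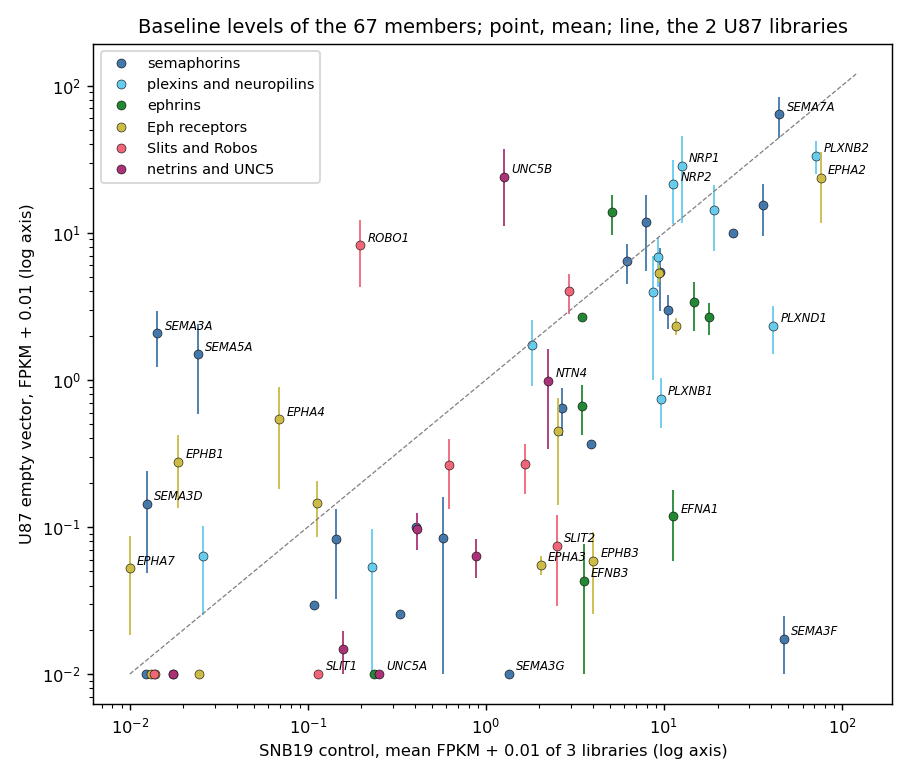
Level of each of the 67 members in SNB19 control cells (mean FPKM + 0.01 of 3 libraries, x axis) and U87 empty vector cells (y axis, point at the mean and line between the 2 libraries), on log axes, coloured by system. The dashed line marks equal levels. SEMA3F lies far below it, and SEMA3A, SEMA5A, ROBO1 and UNC5B lie far above it.

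The lines expressed different class 3 semaphorins. SEMA3F had 3667, 3113 and 3620 counts in SNB19 control cells and 0 and 1 in U87 empty vector cells. The ratio of depth-corrected counts was 6861, with a 95% counting interval of 1231 to 271028. SEMA3G, also secreted, had 307 counts over the SNB19 control libraries and 0 in U87 empty vector, at least 67.5-fold higher against a floor of 3 counts over the group. SEMA3A was the reverse, with 2, 0 and 0 counts in SNB19 and 183 and 385 in U87, a ratio of 430 in favour of U87 (95% counting interval 119 to 3563). SEMA3D also leaned to U87, with 1 count over the SNB19 control libraries and 31 over the U87 empty vector libraries. SEMA3B (10.5 against 3.00 FPKM on average) and SEMA3C (7.87 against 11.7 FPKM) were found in both lines.

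Of the membrane-bound semaphorins, SEMA5A was carried by U87, at 0.578 and 2.39 FPKM against 0.0107 to 0.0200 FPKM in SNB19 (log2 difference -6.86 ± 0.55, adjusted p = 9.63e-06, and -7.45 without replicate 1). SEMA7A was abundant in both, with 43.2 to 46.5 FPKM in SNB19 and 44.2 and 83.4 FPKM in U87. SEMA4B (35.1 to 37.4 against 9.53 and 21.5 FPKM) and SEMA6B (22.7 to 26.1 against 10.2 and 9.90 FPKM) were higher in SNB19. Their receptors differed too. PLXND1 was 40.4 to 41.7 FPKM in SNB19 against 1.49 and 3.16 FPKM in U87, a log2 difference of 3.83 ± 0.21 (adjusted p = 1.34e-06, and 3.54 without replicate 1), and PLXNB1, a receptor of SEMA4D, followed at 9.22 to 10.3 against 0.458 and 1.02 FPKM. The neuropilins went the other way, with NRP1 at 12.2 to 13.1 FPKM in SNB19 and 11.7 and 45.4 FPKM in U87 (log2 difference -1.43 ± 0.33, adjusted p = 0.00553, and -2.0 without replicate 1). In FPKM, empty vector replicate 1 lay at the SNB19 level for NRP1 and the ranges overlapped. Its TMM factor of 0.695, against 1.05 to 1.06 in SNB19 control, places it higher than that in the fit.

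In the ephrin system 3 of 4 ephrin-A ligands, 2 of 3 ephrin-B ligands, 3 of 5 EphA receptors and 3 of 4 EphB receptors tested were called higher in SNB19. Of all genes tested, 27.9% were. A member could pass the filter through the line in which it was high, so these counts describe the tested members alone. EFNA1, a ligand of EPHA2, had 9.90 to 12.2 FPKM in SNB19 and 0.0488 and 0.168 FPKM in U87 (log2 difference 6.36 ± 0.34, adjusted p = 1.01e-06, and 5.89 without replicate 1). EPHA2 had 73.7 to 78.5 FPKM in SNB19 and 11.6 and 35.6 FPKM in U87. EFNB3 had 520 counts over the SNB19 control libraries and 3 over the U87 empty vector libraries, a ratio of 114 (95% counting interval 38.9 to 556). EPHB3 was higher in SNB19 by 5.86 ± 0.48 on the log2 scale (adjusted p = 1.22e-05) and EPHA3 by 5.10 ± 0.37 (adjusted p = 5.46e-06). Without replicate 1 these differences were 7.69 and 5.06. EPHB3 had 6 and 1 counts in the empty vector libraries, so its value without replicate 1 rests on that 1 count. EPHA4 and EFNB2 were higher in U87. EPHA4 had 0.172 and 0.885 FPKM there against 0.0240 to 0.0853 FPKM in SNB19, and EFNB2, a ligand of EPHB4, had 9.66 and 18 against 4.78 to 5.49 FPKM. EPHB1 (3 against 54 counts) and EPHA7 (0 against 9 counts) also leaned to U87, near the limit of detection.

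All 3 Slit ligands were called higher in SNB19, beside 27.9% of all genes tested, while Robo and UNC5 receptors went both ways. SLIT2 had 2.14 to 2.87 FPKM in SNB19 and 0.0191 and 0.11 FPKM in U87 (log2 difference 4.98 ± 0.43, adjusted p = 1.5e-05, and 4.35 without replicate 1), and SLIT1 had 44 counts over the SNB19 control libraries and 0 in U87 empty vector, at least 9.68-fold higher. SLIT3 lost its call without empty vector replicate 1 (adjusted p = 0.0577). The receptor ROBO1 was found in U87, with 4.27 and 12.2 FPKM against 0.147 to 0.222 FPKM in SNB19 (log2 difference -5.73 ± 0.35, adjusted p = 2.14e-06, and -6.16 without replicate 1). UNC5B likewise had 11.1 and 37.1 FPKM in U87 and 1.21 to 1.30 FPKM in SNB19 (log2 difference -4.53 ± 0.35, adjusted p = 8.15e-06, and -5.04 without replicate 1). SLIT2, ROBO1 and UNC5B kept their call without that library. UNC5A (49 against 0 counts, at least 10.8-fold) and UNC5C (0.778 to 0.983 against 0.0348 and 0.0732 FPKM) were higher in SNB19. NTN4, the most abundant of the 3 netrins, had 1.86 to 2.46 FPKM in SNB19 and 0.327 and 1.62 FPKM in U87, which did not pass the test (adjusted p = 0.0769, and 0.208 without replicate 1). DCC, the attractive netrin receptor, was at or below 0.0216 FPKM in every library.

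Other guidance genes and the intracellular partners of these receptors were described from lists. Of 19 other guidance ligands and receptors, 15 were tested, and knockdown was accompanied by 1 higher and 4 lower, overexpression by 1 higher and 1 lower, or 33.3% and 13.3% of the list beside 15.1% and 25.3% of all genes. L1CAM, an adhesion molecule that joins neuropilin-1 complexes, fell from 11.0, 11.0 and 11.6 FPKM to 1.78, 1.75 and 1.64 FPKM in SNB19 (log2 fold change -2.78, adjusted p = 0.000213). NTNG2, a membrane-anchored netrin relative, fell as well (-2.28, adjusted p = 9.37e-05). FLRT1 rose (2.91, adjusted p = 0.000841). FLRT2, which binds UNC5 receptors, fell after knockdown (-1.16, adjusted p = 0.0159) and rose with overexpression (1.65, adjusted p = 0.00595, and 1.22 without replicate 1). BOC, a co-receptor of hedgehog signalling, fell in U87 (-1.71, adjusted p = 0.000847, and -1.89 without replicate 1).

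Of 53 intracellular partners, 51 were tested. After knockdown 0 were higher and 7 lower by edgeR's test (0 and 8 by DESeq2, 2 and 10 at an unadjusted p under 0.05), among them ENAH, an actin regulator (43.4, 43.7 and 42.8 against 19.2, 20.6 and 20.7 FPKM, log2 fold change -1.19, adjusted p = 0.00371), and CRMP1, a mediator of semaphorin signals (-1.11, adjusted p = 0.00959). The 7 were 13.7% of the list, beside 15.1% of all genes. With overexpression 6 were higher and 11 lower (33.3%), beside 25.3% of all genes, and 11 higher and 25 lower without empty vector replicate 1 (70.6%), beside 38.9%. ABL2, a tyrosine kinase of the actin cytoskeleton, rose from 4.42 and 12.5 FPKM to 45.3 and 40.1 FPKM (log2 fold change 2.19, adjusted p = 0.00155, and 1.81 without replicate 1). RND1, a small GTPase that binds plexins, rose by 2.89 on the log2 scale from a low level (adjusted p = 0.00899), and by 3.04 without replicate 1. CRMP1, SRGAP1 and ABLIM3 also rose by at least 1 on that scale. DPYSL2, NGEF, SH3BP1 and EVL fell by at least 1, as did RRAS, CDK5 and CFL1, but the last 3 depended on empty vector replicate 1. Without it RRAS lost its call (log2 fold change from -1.21 to -0.19, adjusted p = 0.0951), CDK5 went from -1.19 to -0.36 (adjusted p = 0.0151) and CFL1 from -1.19 to -0.29 (adjusted p = 0.00722). SH3BP1 went from -3.23 to -1.63 (adjusted p = 0.0457). CRMP1 fell after knockdown and rose with overexpression.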

How the data were processed

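Poly-A RNA of 10 libraries was sequenced and processed by the study's authors. The submitters' processing notes name HISAT2, HTSeq 0.11.2, DESeq2 1.26.0 and GRCh38, and whether reads were counted by strand is not given in the sources used here. The deposited table holds whole-number counts per gene, not normalized, and FPKM values, which the authors scaled to gene length and sequencing depth. All 34567 gene IDs were found in GENCODE v29 (GRCh38). Groups were taken from the sample labels. All 20 columns of sample values were used.

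Counts were tested in R 4.3.3 with edgeR 4.0.16 (TMM normalization, filterByExpr with a minimum count of 10, robust quasi-likelihood F test) in 1 fit of all 10 libraries and 4 groups. P-values were adjusted by Benjamini and Hochberg over 17312 genes, and a gene was called at an adjusted p under 0.05. FPKM values are given as levels. DESeq2 1.42.0 and limma 3.58.1 (log2(FPKM + 1) and log2(FPKM + 0.1)) were alternatives, as were other filters, scalings and call rules, each comparison's groups alone, a replicate block and leaving out each library. Depth was 12533775 to 16560324 counts, and intervals of count ratios cover counting error only. Recovery was tried on simulated counts for 17312 genes, of which a small set was changed. The changed genes were drawn from those above a limit on the mean count, so the shares do not cover scarce genes. No simulated library was made to stand apart. The test recovered 49% of the genes changed by 1 on the log2 scale and 97% of those changed by 2 in the knockdown comparison. These shares were 8% and 78% in the overexpression comparison, and 24% and 80% in the baseline comparison.

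The members and gene lists were chosen with earlier results of these data known. Genes named with full values were the members past an adjusted p of 0.05 and an absolute log2 fold change of 1 in a MEOX2 comparison (at most 8 per direction), those called in both, the 8 largest differences per direction at baseline, the most abundant member of each family, and their partners. Genes of the other lists were named where they passed both limits. SEMA3G, NTN5 and EFNA3 after knockdown, and the members that changed sign without an empty vector library, were named after their values were seen. Promoter sequences are from RefSeq (GRCh38.p14), which matched 58 members. The shorter TAAT core was searched after TAATTA. Replicate numbers were not used to pair the samples. The labels give no pairing, and the title of U87 overexpression replicate 1 carries OE-2 in brackets. Deviations of same-numbered SNB19 libraries correlated at -0.0077, -0.0322 and 0.0801 across genes and those of U87 at -0.291. With 2 libraries per U87 group, crossing the numbers only reverses the sign of that value, so it cannot decide on pairing in U87.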

Additional observations from a re-analysis of the deposited data

Results flagged for a closer look

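For 13 members the effect of MEOX2, taken as the log2 fold change of the MEOX2-high over the MEOX2-low group, differed between U87 and SNB19 by the test of the difference itself (edgeR's quasi-likelihood test, adjusted over all genes). The differences below are U87 minus SNB19 on the log2 scale.

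Among semaphorin receptors, the difference was -4.52 ± 0.28 (SE) for PLXND1, whose effect was -3.14 in U87 and 1.37 in SNB19. It was -2.05 ± 0.19 for PLXNB2 (-1.39 and 0.66) and -0.97 ± 0.27 for PLXNA3 (-0.21 and 0.76). Among semaphorins, it was -2.79 ± 0.44 for SEMA3B, -2.12 ± 0.25 for SEMA6B, -0.94 ± 0.21 for SEMA7A and -0.92 ± 0.28 for SEMA4B. For these 4 ligands the effect in U87 had passed the test and that in SNB19 had not.

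In the ephrin system, the difference was -2.0 ± 0.56 for EFNA4, -1.75 ± 0.22 for EFNB1, -0.82 ± 0.22 for EFNB2, -1.03 ± 0.16 for EPHB2 and -0.86 ± 0.18 for EPHB4. For EFNB1 and EPHB2 the larger effect was that in SNB19 (1.48 and 1.13), against -0.27 and 0.10 in U87. NTN4 was the 1 member with a positive difference, 2.15 ± 0.55. Without U87 empty vector replicate 1 the difference fell to -2.01 for SEMA3B and -0.99 for EFNA4, the other members moved by less than 1.5-fold, and all 13 still passed. The adjusted p-values ranged from 3.41e-05 for PLXND1 to 0.0415 for SEMA4B. PLXND1, PLXNB2, SEMA3B, SEMA6B, EFNB1 and EPHB2 passed under all 17 alternatives computed for this test with the same call rule.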

How the results depend on the processing

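No member called with all libraries changed sign under any alternative computed. Among members not called there, 12 were called in an alternative against their earlier sign, 7 of them in U87, 2 at baseline and 5 for the difference. In U87 the majority of called members turned from lower (6 higher, 10 lower) to higher (24 higher, 11 lower) without empty vector replicate 2. Fitting each comparison on its own groups gave 8687 genes and 29 members for SNB19 knockdown, 0 genes and 0 members for U87 overexpression (lowest adjusted p 0.141, 2503 genes at an unadjusted p under 0.05), and 6425 genes at baseline. MEOX2 itself then missed the threshold in U87 (adjusted p 0.141). Its fitted log2 fold change there, 15.29, depends on the prior count because the empty vector has 0 counts, and is neither a measured fold nor a bound. The difference between lines needs all 4 groups, so it has no such value. DESeq2 on the U87 groups alone, chosen after seeing the data, called 991 genes and 6 members.

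The labels do not pair replicates of the same number. With the replicate block, 861 genes were called in SNB19, 1908 genes and 8 members in U87, 2068 genes and 7 members for the difference, and 3810 genes and 30 members at baseline (control groups alone). It left 8 members in SNB19, and 2 of the 6 SNB19 libraries correlated best with their own number. With the U87 numbers crossed, also chosen after seeing the data, the block called 3467 genes and 12 members in U87.

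Requiring a log2 fold change above 1 as well left 1200 genes and 7 members in SNB19, 2789 genes in U87 and 8 members for the difference.

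Leaving out 1 library at a time gave 1065 to 1411 genes and 7 to 8 members in SNB19, 1467 to 10932 genes and 5 to 35 members in U87, 2129 to 10440 genes and 6 to 32 members for the difference, and 8100 to 13545 genes and 42 to 52 members at baseline. In SNB19, leaving out U87 empty vector replicate 1, which enters through the shared spread alone, gave 8641 genes and 29 members. For U87 and the difference the higher counts came without an empty vector library (7131 genes in U87 without replicate 1, 10932 without replicate 2) and the lower counts without an overexpression library. The cause was not tested.

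On both FPKM scales the majority of called genes turned from lower to higher in all 4 comparisons, and the median of all genes from negative to positive in SNB19, in U87 and for the difference. On log2(FPKM + 1) and log2(FPKM + 0.1), higher genes made up 59.8% and 57.9% of the calls in SNB19 (44.5% on counts), 61.2% and 57.9% in U87 (43%), 67.9% and 68.3% at baseline (49.4%) and 63.8% and 61.3% for the difference (41.9%). The median of all genes moved to 0.21 and 0.41 at baseline, 0.05 and 0.16 in U87, 0.14 and 0.27 for the difference, and 0.04 and 0.07 in SNB19. DESeq2, RLE size factors and both other filters left the counts of calls in either direction within 1.5 times. By direction, DESeq2 called 1820 genes higher in SNB19 (1167 by edgeR) and 1 member higher (0).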
